A study of Arabidopsis thaliana with 18 samples.

Results

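The response to ultraviolet light (UV) was examined in tt4, an Arabidopsis thaliana mutant in the Col-0 background that is impaired in flavonoid biosynthesis. Its members were the 6 arrays labelled tt4_UV (3 arrays) and tt4_CO (3 arrays), out of 18 arrays in the series. Each array held RNA from the aerial region of a single 18-day-old plant, grown on solid MS medium with 1% sucrose at 22 °C, for 17 days under a photoperiod of 16 h light and 8 h dark. The UV plants then received 24 h of ultraviolet light on day 18. The control plants (CO) received 8 h of extra light, which made their light continuous, and all plants were harvested 6 h into the bright phase. The labels do not say whether the UV plants also had the extra white light, so an effect of UV and one of such a difference in light regime cannot be told apart. The other 12 arrays were wild-type (WT) Col-0 plants and sng1 mutants, impaired in sinapoyl malate, under the same pair of treatments, with 3 plants in each group.

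Flavonoids accumulate in the vacuoles of the leaf epidermis, where they absorb ultraviolet light before it reaches the photosynthetic tissue. TT4 encodes chalcone synthase, the enzyme of the first committed step of flavonoid synthesis, and plants without it make no flavonols or anthocyanins. In Arabidopsis the photoreceptor UVR8 senses UV-B and acts through COP1 and the transcription factors HY5 and HYH to induce flavonoid and other protective genes, while damaging doses also induce stress and defence genes. TT4 itself has no named probe set in the tables used here, so its level could not be used to check the genotype label. A probe set with no listed gene, 250207_at, was at 159 to 275 in the tt4 plants and at 8044 to 9416 in UV-treated plants of the other genotypes, and whether it measures TT4 is not given in those tables.

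Of the 22746 probe sets tested, 6080 (26.7%) differed between tt4_UV and tt4_CO at a Benjamini-Hochberg adjusted p below 0.05 in limma. The higher ones numbered 2879 (12.7%) and the lower ones 3201 (14.1%). At least 2-fold changes were called for 899 probe sets in the higher direction (3.95%) and for 903 in the lower direction (3.97%). Signals of the 3 UV plants lay wholly apart from those of the 3 control plants, and the change was called, for 5789 probe sets (25.5%), among 7683 without overlap of the groups (33.8%). Signals below 16 were set to 16, so a change from or to that value is a lower bound on its size. Correlations between tt4 arrays of a group ran from 0.972 to 0.986. The AFFX-Athal actin control probe sets were compared as the 3′ signal over the 5′ signal, on the log2 scale: the ratio was 2.56, 3.23 and 3.29 in tt4_UV and 1.72, 2.08 and 2.28 in tt4_CO, with no overlap. The second set of actin controls (AFFX-r2-At) ranged from 0.77 to 0.98 under UV and from 0.693 to 1.05 in control light, and so overlapped. Both sets of GAPDH controls overlapped as well. The part of this difference in RNA or labelling quality in the results below was not tested.

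The aerial tissue of the labels was checked against marker genes. The 4 leaf markers (RCA, PSAN, PRK and SBPASE) summed to signals of 46766 to 49118 in the control plants and 28459 to 33107 under UV, and all 4 were called lower. The lists for root, seed and flower held 6 genes between them whose summed signals never exceeded 105 in a list, and the shoot meristem gene CLV3 was at the lowest value on all 6 arrays. None of the 7 genes of these 4 lists was called. In whole tissue, fewer cells of a type and less RNA per cell cannot be told apart, which applies to every fall reported here.

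The steepest rises in tt4 among probe sets with 1 listed gene included genes of defence, detoxification and secondary metabolism. Of the 6080 called probe sets, 2728 had no listed gene and 117 had several, so these could not be ranked. AT3G48640 had signals of 1242, 1865 and 964 under UV against 26.6, 16 and 16 in control light, a log2 change of 6.11 (SE 0.56, limma adjusted p 1.66e-05). The 3 UV plants were all far above the controls, of which 2 lay at the lowest value. The neighbouring locus AT3G48650, listed as a transcribed pseudogene, gave 342, 351 and 216 against 22.9, 18 and 16. AT3G13610, listed under the synonym F6'H1 for the hydroxylase that leads to the coumarin scopoletin, rose from 31.2, 16 and 16 to 936, 1134 and 523 (log2 change 5.36, SE 0.80). Its lowest UV plant still exceeded its highest control plant by a wide margin. AT1G13470, AT2G20720, AT5G42830, AT5G52760, AT3G18250 and AT4G00700, which carry no symbol in the tables, rose by 3.52 to 4.40 on the log2 scale. The call on AT5G52760 (log2 change 3.82) did not hold when only the 6 tt4 arrays were fitted (adjusted p 0.0623).

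**Figure D1:**
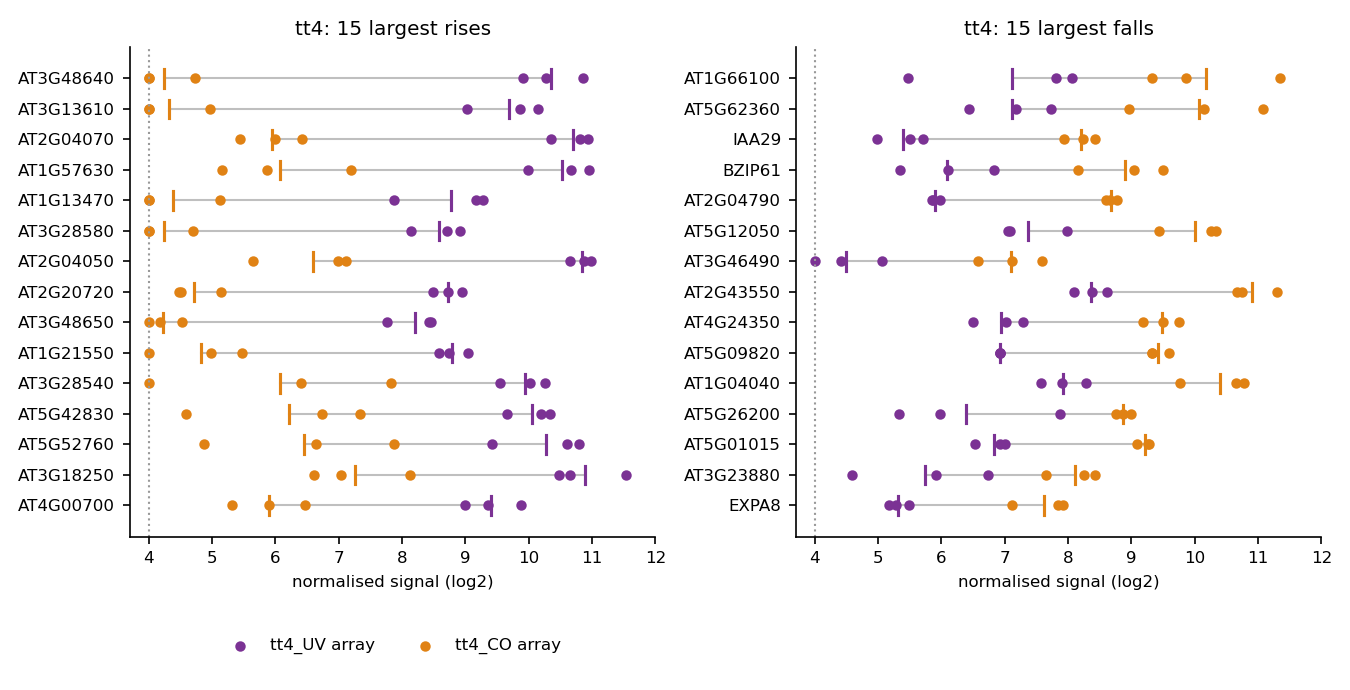
Normalised log2 signal (x axis) of the 15 genes with the largest called rises (left) and falls (right) in tt4 whose groups do not overlap; points are single plants, short vertical lines are group means, and the dotted line at 4 marks the lowest value used. AT3G48640 moved from a control mean near the dotted line to signals of 964 to 1865, while the falls end between 16 and 392.

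Several genes of calcium signalling rose steeply. Over all 13286 genes with a name, each represented by 1 probe set, 11.1% were called higher and 12.9% lower, and the median log2 change was 0.00. The counts of every list below are to be read against these shares. Of 35 calmodulin-like genes, which encode calcium-binding sensors, 9 rose and 1 fell. AT1G21550 gave 383, 426 and 529 under UV and 44.2, 16 and 31.6 in control light, a log2 change of 3.97 (SE 0.38, limma adjusted p 2.32e-05). CML37 was at 16 in all 3 control plants and at 71.8, 87.8 and 70.6 under UV, at least 4.75-fold higher. AT5G39670 and AT3G01830 rose by 3.34 and 3.37, and CML41 rose from 285, 81.9 and 484 to 1713, 1520 and 1419. The remaining 25 measured calmodulin-like genes were not called, so the list's median of 0.12 hardly differed from that of all genes. With only the 6 tt4 arrays in the fit, 5 rises were called in this list, and CML41 was not (adjusted p 0.0747).

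Genes listed as TIR or NB-LRR proteins, which include intracellular immune receptors for pathogen molecules, rose more often than they fell. Of 108 measured, 20 rose and 7 fell, and the median log2 change was 0.09. These shares, 18.5% and 6.48%, compare with 11.1% and 12.9% of all genes. AT1G57630 had the largest rise, from 147, 35.6 and 58.2 to 1626, 1972 and 1016 (log2 change 4.46, SE 0.59, limma adjusted p 0.000179). AT2G32140 rose from 31.8, 16 and 18.9 to 194, 337 and 198. Smaller rises of 1.90 and 1.94 were measured for AT3G44400 and AT1G12290. The largest fall was that of AT4G19530, from 1211, 1371 and 1058 to 490, 461 and 274 (log2 change -1.61). In 16 of the 20 rising genes tt4_UV replicate 3 was the UV plant nearest to the controls. With the 6 tt4 arrays alone, 9 genes of the list rose and 3 fell.

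Calls among receptor kinases at the cell surface were mostly rises. S-domain receptor kinases had 9 rises and 2 falls among 24 genes, shares of 37.5% and 8.33% against 11.1% and 12.9% of all genes. The rises were led by AT1G61610 (log2 change 1.96) and AT1G11330, which rose from 249, 157 and 202 to 762, 732 and 638. AT1G11340, of the same family, fell by 1.30, a call that was lost with a floor of 64, where 4 rises were called. The call on AT1G61610 was lost with a floor of 4 or of 64 and in the 6 tt4 arrays alone. The leucine-rich repeat receptor kinases of subfamily I had 4 rises and 1 fall among 35, shares of 11.4% and 2.86%, of which the first is close to the 11.1% of all genes. AT1G51890 rose from 143, 61.9 and 101 to 900, 691 and 572 (log2 change 2.88, SE 0.38). Its relative AT1G51805 fell from 746, 681 and 865 to 525, 398 and 309. Without tt4_CO replicate 2, 2 rises were called in this list, and with a floor of 64, 1. The call on AT1G51805 was lost in the 6 tt4 arrays alone (adjusted p 0.0677).

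Most listed genes of salicylic acid and N-hydroxypipecolic acid defence, the signals of systemic acquired resistance, rose. Of 9 measured, 8 rose and none fell, with a median log2 change of 1.96 against 0.00 for all genes. The list was assembled with earlier results of these data known and holds only genes with a named probe set. Its counts describe these 9 genes and are no test of the pathway. SAG101, which acts with EDS1 in immunity, gave 405, 354 and 264 under UV against 165, 83.8 and 161 (log2 change 1.36, SE 0.27, limma adjusted p 0.00221). GRX480, a glutaredoxin that binds TGA factors, rose from 68.6, 108 and 58.7 to 390, 297 and 148. UGT76B1, whose product glucosylates N-hydroxypipecolic acid and isoleucic acid, rose from 276, 170 and 231 to 1133, 874 and 1013 (log2 change 2.18). RING1 rose from 1741, 424 and 1118 to 4596, 4901 and 2149, and AT5G52810, AT4G26120, AT5G03350 and AT3G48080 rose by 1.84, 2.19, 2.50 and 2.68. UGT74F1, a salicylic acid glucosyltransferase, had a log2 change of 0.65 and did not pass (adjusted p 0.349). UV replicate 3 was the UV plant nearest to the controls in 7 of the 8 genes that rose. In the fit of the 6 tt4 arrays alone 4 rises were called, while SAG101, RING1, GRX480 and AT3G48080 were not. GRX480 was also lost without tt4_CO replicate 3, tt4_UV replicate 1 or tt4_UV replicate 2, and AT3G48080 without tt4_CO replicates 2 or 3 or tt4_UV replicate 1 (adjusted p up to 0.0766 and 0.0977).

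Members of a pair of further defence families rose. Ankyrin proteins related to ACD6, a regulator of salicylic acid defence, had 5 rises and no fall among 16 genes. These are shares of 31.2% and 0%, against 11.1% and 12.9% of all genes. AT4G03450 rose from 76.8, 48.1 and 69.6 to 644, 750 and 259 (log2 change 2.97, SE 0.43), and AT1G10340 rose from 221, 43.8 and 93.7 to 1211, 1323 and 364. Control replicate 2 was the lowest control plant and UV replicate 3 the lowest UV plant in all 5. Leaving out tt4_CO replicate 2, tt4_UV replicate 1 or tt4_UV replicate 2 gave 2 rises, and leaving out tt4_CO replicate 3 gave 3. The call on AT3G13950 (log2 change 3.03) was lost when any tt4 array other than CO replicate 1 was left out, with an adjusted p up to 0.113. AT4G11000 (log2 change 1.38) was lost without tt4_CO replicate 2 and without tt4_UV replicates 1 or 2. Berberine bridge enzyme-like oxidases, which oxidise cell wall sugars and other substrates, had 6 rises and 1 fall among 22, shares of 27.3% and 4.55%. AT1G26420 gave 378, 303 and 391 against 53.5, 54.8 and 42.3, while AT5G44410 fell from 148, 180 and 176 to 31.9, 46.1 and 48.4. With the 6 tt4 arrays alone, 2 rises were called in each of these families, and AT1G10340 was not (adjusted p 0.0842).

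Falls outnumbered rises among small secreted defence peptides. Of 17 defensins, thionins and related peptides, 4 fell and 1 rose, with a median log2 change of -0.41. The shares, 23.5% lower and 5.88% higher, compare with 12.9% and 11.1% of all genes and rest on few genes. AT2G43550 fell from 1726, 2524 and 1622 to 272, 392 and 333 (log2 change -2.54, SE 0.19, limma adjusted p 5.46e-06), and the nearby loci AT2G43530 and AT2G43535 fell by 1.70 and 1.62. AT1G66100 had the steepest fall of any named gene, from 644, 2609 and 935 to 267, 225 and 44.4 (log2 change -3.07, SE 0.98). That call was lost without tt4_CO replicate 2, tt4_CO replicate 3 or tt4_UV replicate 3, or in the 6 tt4 arrays alone, with an adjusted p up to 0.138. LCR67 was the exception: it lay at 16 in all controls and at 209, 120 and 52.3 under UV, at least 6.82-fold higher, a call that ended with a floor of 64.

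Transporters of the detoxification lists included 2 of the 15 largest rises. AT2G04070 and AT2G04050, of the MATE family that exports organic compounds, gave log2 changes of 4.75 (SE 0.37) and 4.25 (SE 0.58). AT2G04050 rose from 139, 50.1 and 127 to 1611, 1868 and 2025. Over the 38 MATE genes, however, 4 rose and 7 fell, shares of 10.5% and 18.4% against 11.1% and 12.9% of all genes. Among the falls were AT5G44050, from 139, 173 and 103 to 39.2, 48.5 and 56.2, and AT5G17700, from 180, 174 and 156 to 82.0, 67.7 and 67.7. Without tt4_CO replicate 3 the falls no longer outnumbered the rises, and without tt4_UV replicate 2 they numbered 4. UDP-glycosyltransferases, which attach sugars to flavonoids, hormones and xenobiotics, had 16 rises and 7 falls among 57. Their shares were 28.1% and 12.3%, of which the second is close to the 12.9% of all genes. UGT84A1, a hydroxycinnamate glucosyltransferase, rose from 16 in all controls to 84.1, 100 and 161, at least 6.92-fold. UGT76D1 rose from 21.0, 29.9 and 36.8 to 130, 132 and 104 (log2 change 2.09), and UGT78D2, a flavonoid 3-O-glucosyltransferase, from 234, 200 and 317 to 443, 555 and 658 (log2 change 1.15). UGT72E1, a monolignol glucosyltransferase, fell by 1.01, and UGT76C1 and UGT76C2, which glucosylate cytokinins, fell by 0.63 and 0.95. The UGT76C2 call was lost without any one of tt4_CO replicates 2 and 3 and tt4_UV replicates 1 and 3 (adjusted p up to 0.18), and that on UGT76C1 in the 6 tt4 arrays alone. With the 6 tt4 arrays alone 7 rises and 2 falls were called in this family. Glutathione transferases, conjugating enzymes often induced by stress, had no called rise among the 14 genes measured. GSTU18 alone was called, falling from 1124, 1060 and 1065 to 230, 258 and 204. The shares called, 0% higher and 7.14% lower, compare with 11.1% and 12.9% of all genes. Changes of 0.99, 0.80 and 0.76 in GSTU25, GSTU22 and GSTU28 did not pass. Changes were below 0 in 8 of the 14 genes, a share close to the 7547 of 13286 among all named genes. Without tt4_CO replicate 3 or tt4_UV replicate 2 there were 2 falls in this list.

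Several genes of BCS1-like ATPases and of alternative NAD(P)H dehydrogenases rose. AAA-type ATPases of the BCS1-like family, named for a mitochondrial assembly factor of yeast, had 6 rises and no fall among 16. These are shares of 37.5% and 0%, against 11.1% and 12.9% of all genes. AT3G28580 rose from 26, 16 and 16 to 480, 420 and 283 (log2 change 4.35, SE 0.41, limma adjusted p 2.23e-05). AT3G28540 was more variable in the controls, at 227, 16 and 84.8, against 1228, 1043 and 749 under UV (log2 change 3.87, SE 0.95). AT2G18190 rose by 2.61 and AT1G43910 by 3.37, with control replicate 2 lowest in both. With the 6 tt4 arrays alone 2 rises were called, and AT3G28540, AT1G43910, AT2G18190 and AT5G17760 were not. Of 5 genes of alternative NAD(P)H dehydrogenases, which bypass the proton-pumping complex of respiration, NDB4, NDB2 and NDB3 rose. NDB2 went from 517, 280 and 466 to 1430, 1550 and 1678 (log2 change 1.93, SE 0.27). NDB4 went from 16 in every control to 115, 95.1 and 138, at least 7.16-fold, and NDB3 rose by 1.08. The NDB3 call was lost without tt4_CO replicate 1, and a floor of 64 ended the calls on NDB3 and NDB4.

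Many protein folding and degradation genes rose in tt4 under UV, most by small amounts. Heat shock proteins and cochaperones had 12 rises and 3 falls among 36, with a median of 0.35. AT3G09440, of the Hsp70 family, rose from 2573, 1186 and 1984 to 7974, 7961 and 9968 (log2 change 2.24, SE 0.25, limma adjusted p 7.01e-05). Fes1A, a cochaperone of Hsp70, rose from 405, 287 and 419 to 1023, 1051 and 1223, and Hsp70-2 rose by 1.86. Control replicate 2 was the lowest control in 11 of these 12 genes. Without it 8 rises were called, as without tt4_UV replicate 3, and the 6 tt4 arrays alone gave 6. Cpn60beta4, a subunit of the chloroplast chaperonin, fell from 743, 791 and 884 to 347, 307 and 323.

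The folding machinery of the endoplasmic reticulum had 12 rises and 1 fall among 18 genes, with a median of 0.44. BZIP60, a transcription factor of the unfolded protein response, rose from 788, 705 and 738 to 1541, 2101 and 1826 (log2 change 1.28, SE 0.18). DER1, of the system that removes misfolded proteins, rose from 572, 508 and 523 to 1029, 949 and 963 (log2 change 0.88, SE 0.08, limma adjusted p 1.21e-05). ATERDJ3B and CRT1b, a cochaperone and a calreticulin, rose by 1.42 and 1.01, and the sensor BZIP28 by 0.47. With the 6 tt4 arrays alone 11 rises were called in this list. Of 9 genes of the 26S proteasome, which degrades ubiquitinated proteins, 8 rose and none fell, with a median of 0.55 and 7 calls in the 6 arrays alone. AT5G23540 rose from 2301, 1929 and 2090 to 4403, 5111 and 4477 (log2 change 1.15, SE 0.08, limma adjusted p 2.94e-06), and RPN12a, a subunit of the regulatory lid, rose by 0.65. Among 10 autophagy genes APG8A rose from 806, 582 and 798 to 1484, 1652 and 1698, and ATG8H, ATG8B and ATG3 rose by 0.73, 0.71 and 0.22. ATG8H and ATG8B were not called without tt4_CO replicate 2 or tt4_UV replicate 3, and ATG3 was not called when any single tt4 array was left out (adjusted p up to 0.15). Rises in this list then numbered 1 without tt4_CO replicate 2 and 2 without tt4_UV replicate 3.

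Genes of ribosomes outside the chloroplast rose more often than they fell. Of 21 genes of ribosome assembly in the nucleolus 14 rose and none fell, and all 21 had positive changes, with a median of 0.52. AT5G11240 rose from 212, 237 and 295 to 488, 515 and 435 (log2 change 0.96, SE 0.11), and AT4G04940 rose from 109, 136 and 149 to 258, 380 and 342. Of 128 genes of cytosolic ribosomal proteins 39 rose and 1 fell, with a median of 0.18. The best supported of these, AT5G27850, rose from 6736, 6517 and 6844 to 8372, 9694 and 8424, a log2 change of 0.40, which was 0.19 after centring each array on its median and 0.20 without normalisation. Without tt4_CO replicate 1, tt4_CO replicate 2 or tt4_UV replicate 2 the rises of ribosomal protein genes numbered 22, 24 and 19, the last with 5 falls. Centring arrays on their medians gave 15 rises, and the values as deposited gave 18. The 6 tt4 arrays alone gave 12 rises of ribosomal protein genes and 4 of assembly genes.

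All 6 measured genes listed for the UV-B and HY5 pathway rose in tt4, with a median log2 change of 1.80. Because the list was assembled with earlier results of these data known, this count is a description and carries no test. Of the pathway regulators named above, only HYH is among the 6. AT1G06000 rose from 162, 134 and 187 to 679, 813 and 822 (log2 change 2.27, SE 0.17, limma adjusted p 4.63e-06). AT3G44450 and AT3G52740 rose by 1.97 and 1.20. UGT84A1, described above among the glycosyltransferases, also belongs to this list. CHIL, a non-catalytic chalcone isomerase-like protein that promotes the chalcone synthase reaction, rose from 87.1, 79.3 and 82.6 to 291, 237 and 240 (log2 change 1.62, SE 0.37). HYH rose from 49.6, 34.2 and 106 to 125, 115 and 136 (log2 change 1.15, SE 0.37), with one control plant just below the lowest UV plant. In each of the 6 genes the change in tt4 was smaller than in WT and in sng1, whose medians were 2.53 and 2.70. For CHIL the log2 changes were 1.62, 2.50 and 2.96 in tt4, WT and sng1, and for HYH 1.15, 1.92 and 1.99. Without tt4_CO replicate 1 or 2, or tt4_UV replicate 2 or 3, the rises in tt4 numbered 4, and those of AT3G52740 and HYH were not called. HYH was also not called without tt4_UV replicate 1 or in the 6 tt4 arrays alone (adjusted p up to 0.178). None of these differences between genotypes passed the test (smallest adjusted p 1 against WT and 0.906 against sng1). Of 13 DNA repair genes 1 rose and 1 fell: ATLIG4, a ligase that joins double-strand breaks, rose by 0.62, and AT4G36050 fell by 0.39. Each is a share of 7.69%, below the 11.1% of all genes called higher and the 12.9% called lower. The AT4G36050 call was lost without either of tt4_CO replicates 1 and 2 or without any tt4_UV replicate. RAD4 and REV7, of excision repair and translesion synthesis, had changes of -0.27 and -0.50 that did not pass.

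**Figure D2:**
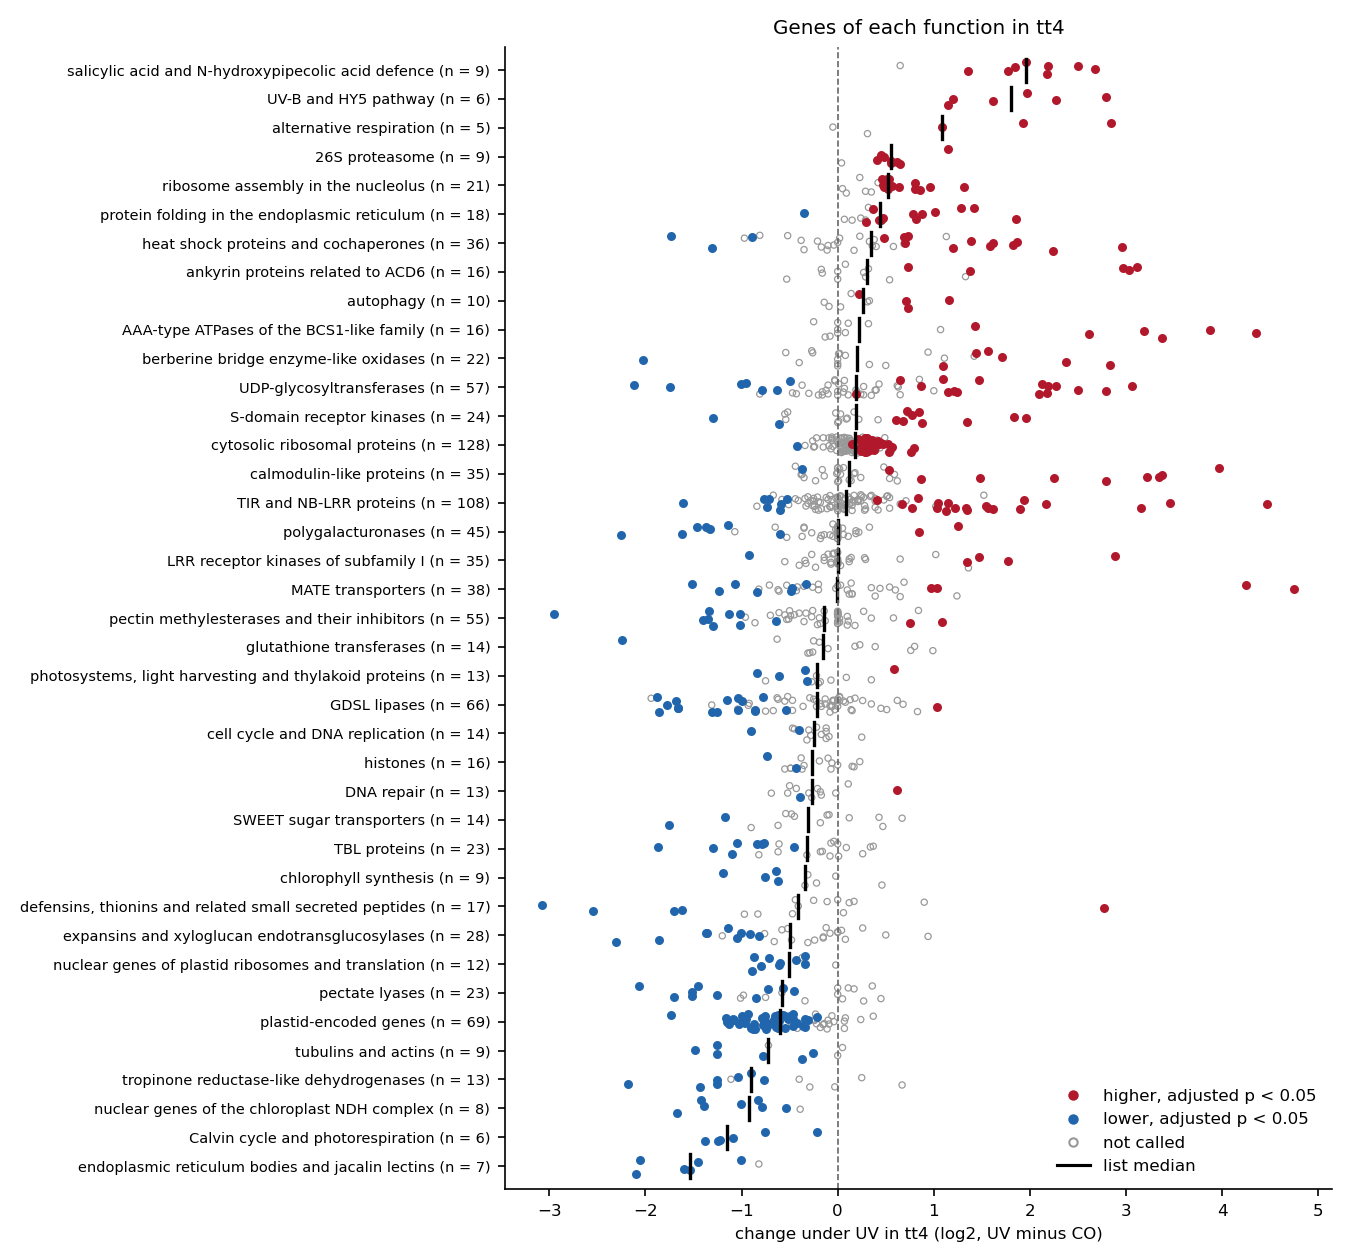
Log2 change under UV in tt4 (x axis) of every measured gene in 39 lists by function, ordered by list median; filled points passed an adjusted p of 0.05, open points did not, black bars are list medians and the dashed line is the median of all named genes, 0.00. The lists for salicylic acid defence (median 1.96) and the UV-B pathway (1.80) lie at the top, and those for endoplasmic reticulum bodies (-1.54) and the Calvin cycle (-1.15) at the bottom.

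Most genes of several chloroplast functions fell. Of 8 nuclear genes for the chloroplast NDH complex, which carries out cyclic electron flow around photosystem I, 7 fell and none rose, with a median of -0.92. NdhN, a subunit, fell from 2085, 2432 and 2220 to 961, 727 and 504 (log2 change -1.67, SE 0.26, limma adjusted p 0.000532). NdhL and NdhS, also of the complex, fell by 1.39 and 0.79, and CRR21, a factor that edits one of its plastid transcripts, fell from 325, 309 and 428 to 160, 179 and 186. CRR22, a further editing factor, had a change of -0.39 that did not pass. All 6 measured genes of the Calvin cycle and photorespiration fell, with a median of -1.15. SBPASE, which regenerates the carbon dioxide acceptor, went from 8225, 8288 and 8537 to 3538, 3640 and 2537 (log2 change -1.38, SE 0.17). HPR, the peroxisomal hydroxypyruvate reductase of photorespiration, went from 10792, 11571 and 12297 to 5539, 5085 and 4329 (log2 change -1.22), and PRK, phosphoribulokinase, fell by 1.09. RCA, Rubisco activase, fell by 0.22, from 17661, 18037 and 17661 to 15599, 15407 and 14695, and by up to 0.56 under the other settings tried.

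Genes of the photosystems and of chlorophyll synthesis were called at lower shares, 30.8% and 44.4% in the lower direction against 100% for the Calvin cycle. Of 13 genes of photosystems, light harvesting and thylakoid proteins 4 fell and 1 rose. TROL, which tethers ferredoxin-NADP reductase to the thylakoid, fell from 2967, 2941 and 2477 to 1621, 1613 and 1451 (log2 change -0.84, SE 0.07, limma adjusted p 1.27e-05), and PSAN, a photosystem I subunit, fell by 0.61. Centring arrays on their medians, or the values as deposited, gave 7 falls in this list. Of 9 genes of chlorophyll synthesis CHLM, CHLI2, HEME1 and HEME2 fell, by 1.19, 0.76, 0.64 and 0.62. CHLM, the magnesium protoporphyrin methyltransferase, gave 3206, 3071 and 1966 against 6286, 6762 and 5382.

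Genes of plastid gene expression in the nucleus and genes encoded in the plastid both fell. Nuclear genes of plastid ribosomes and translation had 9 falls and no rise among 12, with a median of -0.51, opposite in sign to the 0.18 of cytosolic ribosomal proteins. AT5G47190 fell from 4745, 5075 and 4346 to 2657, 2685 and 2321 (log2 change -0.89, SE 0.11). Of 69 genes encoded in the plastid 47 fell and none rose, with a median of -0.60. ndhH, a subunit of the NDH complex, fell furthest, from 1582, 1831 and 1344 to 615, 535 and 323 (log2 change -1.73, SE 0.22). psbD, for a reaction centre protein of photosystem II, fell from 3596, 3698 and 3457 to 1812, 1919 and 1649, while psbA, for its partner, had a log2 change of 0.37 that did not pass (adjusted p 0.273). The polymerase gene rpoB fell by 1.16 and rpoC1 by 0.78, whereas rpoA had a change of 0.24 that did not pass. With the 6 tt4 arrays alone 32 falls were called.

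Genes of cell wall loosening also fell. Of 28 expansins and xyloglucan endotransglucosylases, which loosen the wall for expansion, 9 fell and none rose, with a median of -0.50. EXLA2 fell from 140, 135 and 103 to 26.2, 28.4 and 55.0 (log2 change -1.86, SE 0.30), and EXPA4 from 332, 463 and 328 to 171, 218 and 127. EXPA8 fell from 229, 242 and 138 to 38.8, 44.9 and 36.0 (log2 change -2.31), but its call was lost when any tt4 array other than CO replicate 3 was left out (adjusted p up to 0.0794). Without tt4_CO replicate 1 or tt4_CO replicate 2 the falls numbered 5, and the 6 tt4 arrays alone gave 3, without EXPA4 (adjusted p 0.0588). Pectate lyases, which cleave pectin, had 10 falls and no rise among 23, with a median of -0.58. AT5G48900 fell from 615, 947 and 580 to 171, 189 and 142 (log2 change -2.07, SE 0.28, limma adjusted p 0.000194), and AT1G04680 and AT5G63180 fell by 1.26 and 1.51. The 6 tt4 arrays alone gave 6 falls, and AT5G63180 was not called (adjusted p 0.0617).

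Other enzymes of pectin and wall polymers gave falls at shares from 15.6% to 34.8%. Polygalacturonases had 7 falls and 2 rises among 45, with a median of 0.00 and 14 genes at the lowest value on all 6 arrays. Their share of falls, 15.6%, is close to the 12.9% of all genes. AT3G62110 fell from 637, 728 and 782 to 298, 272 and 261 (log2 change -1.37, SE 0.10, limma adjusted p 3.62e-06). No rise was called in that family without tt4_CO replicate 3 or tt4_UV replicate 3. Pectin methylesterases and their inhibitors had 9 falls and 2 rises among 55, shares of 16.4% and 3.64%. AT5G62360 fell from 1132, 2173 and 496 to 212, 144 and 86.7 (log2 change -2.95, SE 0.59), and AT4G25260 from 533, 734 and 517 to 208, 248 and 236. In the 6 tt4 arrays alone, 1 fall was called in that family, and AT5G62360 was at an adjusted p of 0.0576. TBL proteins, a family that acetylates wall polysaccharides, had 8 falls among 23, led by TBL45 (log2 change -1.87) and TBL25, from 1826, 1970 and 1783 to 650, 776 and 842. Without tt4_CO replicate 3 or tt4_UV replicate 3 the falls in that family numbered 4, as in the 6 tt4 arrays alone, and with a floor of 64 they numbered 5. GDSL lipases, which include cutin synthases, had 16 falls and 1 rise among 66, and AT1G33811 fell from 1518, 1687 and 1996 to 465, 586 and 374 (log2 change -1.88, SE 0.19). The 6 tt4 arrays alone gave 9 falls of GDSL lipases.

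Most cytoskeleton genes fell and those of cell division gave few calls. Of 9 tubulins and actins 6 fell, with a median of -0.72. TUB6 fell from 2421, 2400 and 1824 to 870, 941 and 952 (log2 change -1.26, SE 0.12), and TUB5 and TUB1 fell by 1.48 and 1.25. TUB1 was not called in the 6 tt4 arrays alone (adjusted p 0.0732), where 2 falls were called. Of 14 genes of the cell cycle and DNA replication 2 fell: AT3G45850 by 0.90, and PRL, a subunit of the replicative helicase, by 0.40. The PRL call was lost without tt4_CO replicates 2 or 3 or tt4_UV replicates 2 or 3, each of which was left out in turn. Histones had 2 falls among 16, those of AT2G37470 (-0.73) and AT2G30620 (-0.43). The first was not called without tt4_CO replicate 2, tt4_CO replicate 3 or tt4_UV replicate 1, and the second not without tt4_UV replicate 1. Falls of histones numbered 5 without tt4_CO replicate 1 and 3 without tt4_UV replicate 3. Both lists' shares, 14.3% and 12.5%, are close to the 12.9% of all genes.

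The transcriptional regulators IAA29 and BZIP61 were among the steepest falls. IAA29, a repressor of auxin signalling that is induced in shade, fell from 246, 345 and 303 to 31.5, 52.0 and 45.5 (log2 change -2.81, SE 0.54). BZIP61, a transcription factor, fell from 525, 726 and 284 to 68.9, 114 and 40.5. AT5G09820 was at 121 in all 3 UV plants against 771, 644 and 642 in the controls (log2 change -2.50, SE 0.26). AT2G04790 fell from 405, 388 and 436 to 58.2, 62.7 and 57.8. These genes are among the 15 largest falls, which were taken only from probe sets with 1 listed gene whose groups did not overlap.

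Genes of endoplasmic reticulum bodies and jacalin lectins had the lowest median of the lists, -1.54, with 6 falls among 7. These bodies store β-glucosidases that are released on wounding and act with lectins in defence against herbivores. NAI1, the transcription factor that controls them, fell from 94.5, 211 and 106 to 25.6, 36.3 and 28.9 (log2 change -2.10, SE 0.32, limma adjusted p 0.000473). PYK10, the main β-glucosidase of the bodies, gave 832, 1296 and 3069 under UV against 4754, 3470 and 5588. One UV plant thus came close to the lowest control, and the log2 change was -1.60 (SE 0.42). JAL34, a lectin, fell from 1587, 1377 and 2136 to 312, 380 and 543 (log2 change -2.06), and NAI2 and JAL22 fell by 1.54 and 1.45. In the 6 tt4 arrays alone 3 falls were called, and NAI2, JAL22 and PYK10 were not. PYK10 was also lost without tt4_UV replicate 1 (adjusted p up to 0.138). The corresponding medians were -1.22 in WT and -0.94 in sng1, with no tested difference below an adjusted p of 0.877.

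Tropinone reductase-like dehydrogenases, a family expanded in crucifers whose substrates are mostly unknown, had 7 falls and no rise among 13. Their median was -0.90, against -0.13 in WT and -0.31 in sng1. No difference between genotypes passed in this list (smallest limma adjusted p 0.913 against WT and 0.0806 against sng1). Of the 7 genes that fell, 5 were also called in WT. AT2G29290 fell from 1319, 1412 and 1135 to 417, 307 and 176 (log2 change -2.18, SE 0.34), and AT1G07440 from 2041, 1362 and 1605 to 688, 618 and 536. AT2G29170 had low signals, 35.4, 35.2 and 27.0 against 20.3, 16 and 16, and fell by 0.90 in tt4, whereas it rose by 0.66 in sng1. The difference from sng1 came to an adjusted p of 0.0806 and so did not pass, and a floor of 64 removed the tt4 change. Of 14 SWEET sugar transporters SWEET17 and SWEET16, of the vacuole, fell by 1.17 and 1.75, a share of 14.3% against the 12.9% of all genes.

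**Figure D3:**
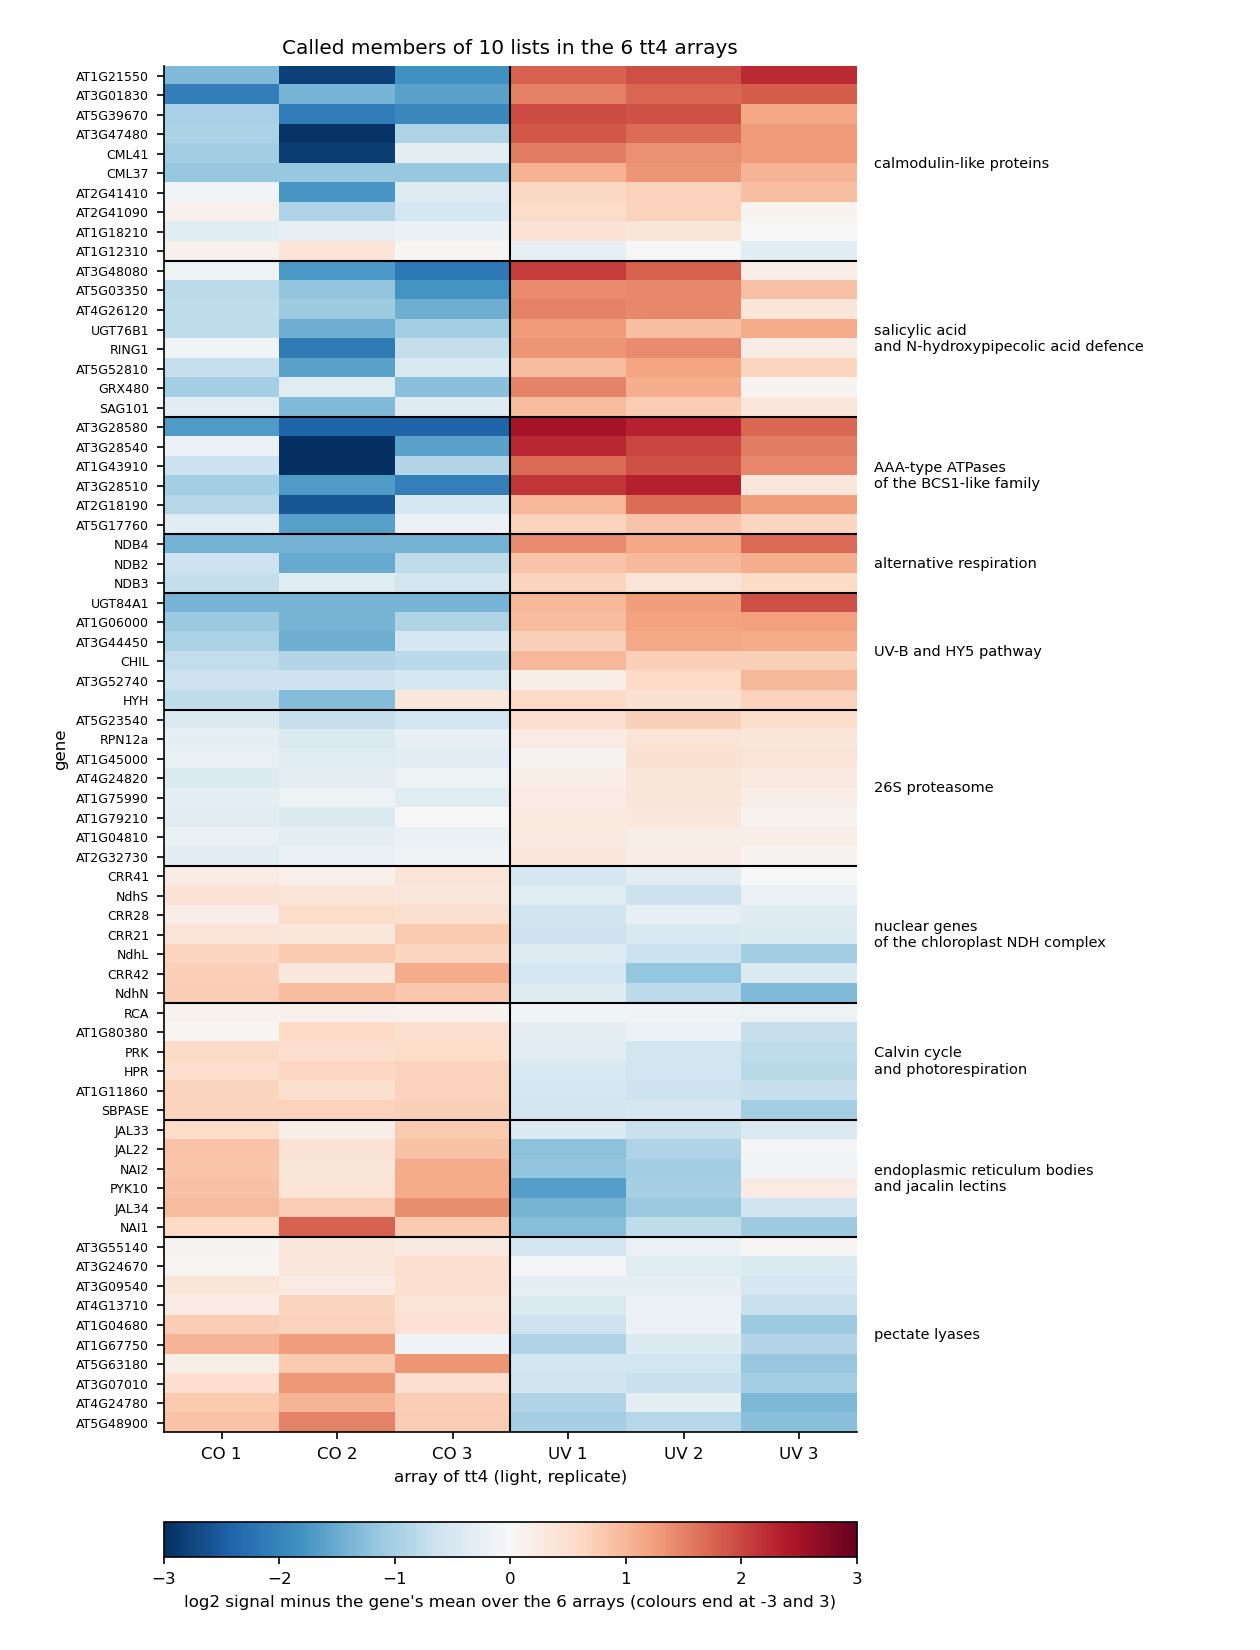
Log2 signal of the called members of 10 lists in each tt4 plant, minus the gene's mean over the 6 arrays (colour scale, red higher, blue lower); columns are the 3 control and 3 UV arrays. Control replicate 2 is the bluest control column for several of the rising genes, such as AT1G43910 at 87.3 against 644 and 542.

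The same lists were measured in WT and sng1, whose arrays are not shared with tt4. All 18 arrays were normalised and fitted together, so each probe set's estimate of spread is common to the 3 genotypes and their calls are not independent. UV changed 5540 probe sets in WT (24.4%) and 5350 in sng1 (23.5%). Of the probe sets called higher in tt4, 73.2% were also higher in WT and 68.5% in sng1, and these made up 74.4% and 73% of the calls in those genotypes. For lower calls the shares were 67% and 65.2% of the tt4 calls, and 79.3% and 78.8% of those of the other genotypes. In the test of the difference itself, the UV effect in tt4 differed from that in WT for 1 probe set of 22746 (0.0044%), and from that in sng1 for 1 (0.0044%). Without adjustment, p was below 0.05 for 1032 probe sets (4.54%) against WT and for 1236 (5.43%) against sng1. The median standard error of such a difference was 0.24 on the log2 scale, so small differences would not have been called. Larger ones also went uncalled: UGT73B4 differed from sng1 by -1.36 (SE 0.41, limma adjusted p 0.87) and AT2G04050 by 1.42 (SE 0.82, limma adjusted p 0.929). The low number of calls therefore does not show that the responses were alike.

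The one difference was at the same probe set, 250207_at, for which the tables list no gene. Its signal in tt4 was 159, 181 and 221 under UV and 243, 264 and 275 in control light, a change of -0.49 that did not pass (adjusted p 0.189). In WT it rose from 494, 431 and 592 to 8207, 8697 and 9416, and in sng1 from 623, 316 and 244 to 8560, 9115 and 8044. The difference of tt4 from WT was -4.62 (SE 0.36, limma adjusted p 0.000279) and that from sng1 was -5.05 (SE 0.36, limma adjusted p 9.61e-05). Every UV plant of tt4 lay below every plant of the other genotypes. Since the tables do not say whether this probe set measures TT4, a difference in the transcript of the mutated gene itself and one in another gene cannot be told apart here.

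No gene of the lists had a called difference between genotypes. The 8 salicylic acid genes that rose all changed more in tt4 than in WT, with list medians of 1.96 in tt4, 1.62 in WT and 1.22 in sng1, but no difference passed (smallest adjusted p 1 against WT and 0.939 against sng1). Because the 8 were chosen by their call in tt4, their larger change there is a description and carries no test. For calmodulin-like genes the medians were 0.12 in tt4, 0.14 in WT and 0.06 in sng1. Ribosome assembly ran the other way: its median was 0.52 in tt4, 0.69 in WT and 0.70 in sng1, and 1 of the 14 genes that rose changed more in tt4 than in WT. For plastid-encoded genes the medians were -0.60, -0.44 and -0.41, and the smallest adjusted p of a difference was 0.877.

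**Figure D4:**
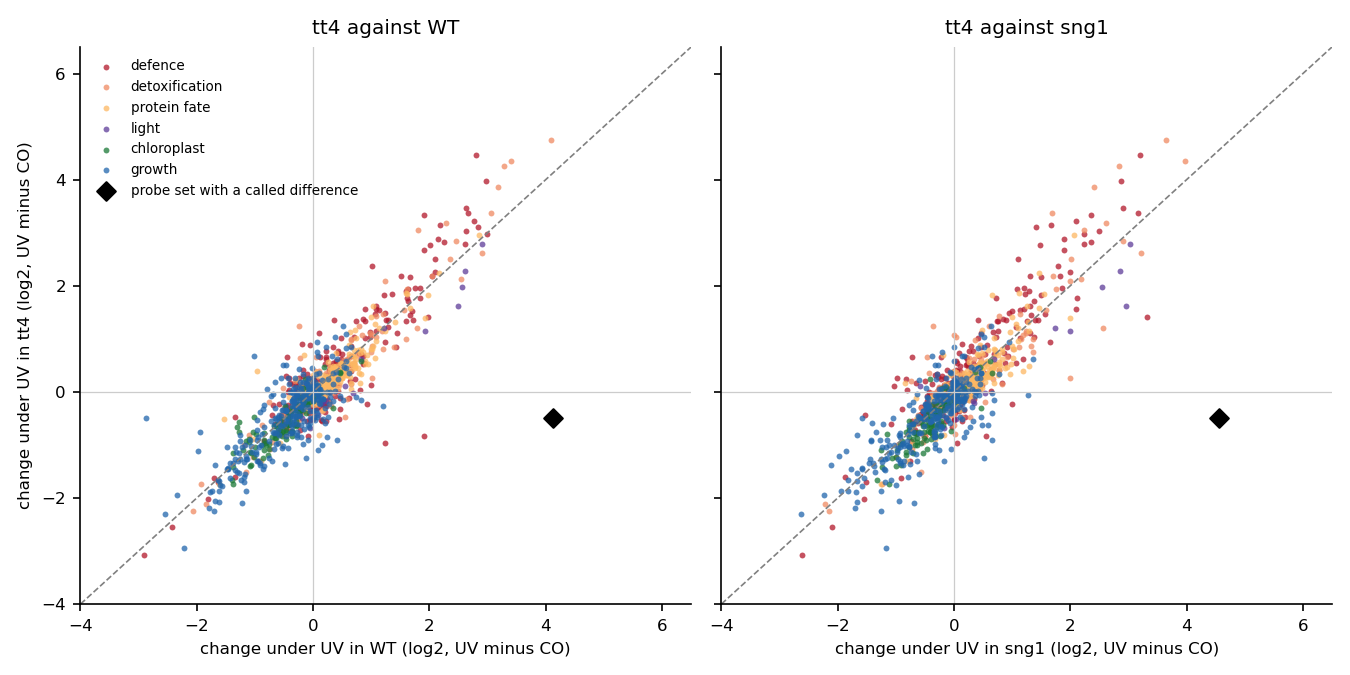
Log2 change under UV in tt4 (y axis) against that in WT (left) and sng1 (right) for every measured gene of the 39 lists, coloured by function; the dashed line marks equal change. Most points follow the line, and the black diamond is 250207_at, at -0.49 in tt4 against 4.13 in WT and 4.56 in sng1.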

How the data were processed

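Total RNA was labelled with biotin and hybridised to Affymetrix ATH1 arrays, 1 plant per array, per the labels. The values are linear signal intensities deposited by the authors, and the labels name no software for them. For this report the 22810 rows were quantile normalised over the 18 arrays, values below 16 were set to 16 and log2 was taken. The 64 control probe sets were then removed. A model with 6 groups (12 residual degrees of freedom) was fitted with limma 3.58.1 in R 4.3.3, and p-values were adjusted by Benjamini-Hochberg over 22746 probe sets. Changes are differences of group means of log2 signal, and every adjusted p in the text comes from limma. The fit was checked on simulated data. Precision is limited by having 3 plants in each group, and the median SE of a tt4 change was 0.17.

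Of the probe sets 13513 had 1 gene in GEO's platform annotation, 503 had several and 8730 were not listed. Symbols were updated from the RefSeq table of TAIR10.1. The tables give no gene descriptions, so the 42 lists were assembled from symbols and, for most families, from loci by general knowledge of Arabidopsis gene families. Genes are represented by their brightest probe set. The members and lists were chosen, and widened, with earlier results of these data known. Lists below 3 measured genes were left out: cysteine-rich receptor kinases, mitochondrial protein import and SAUR genes. The text names the 15 largest changes each way among probe sets with 1 listed gene and no overlap of the groups. It also names up to 4 members per list with the smallest adjusted p. Other members named were picked after their values were seen. Promoter motifs were not analysed here.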

Additional observations from a re-analysis of the deposited data

Results flagged for a closer look

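The probe set 250207_at was set apart by the test of the difference between genotypes. Its UV effect in tt4 was lower than that in WT by a log2 difference of -4.62 and lower than that in sng1 by -5.05, in 3 plants per group. The group means of log2 signal in tt4 were 7.53 under UV and 8.02 in control light. No gene is listed for it in the tables used here, and whether it measures TT4, the mutated gene, is not settled by them.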

How the results depend on the processing

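The count of probe sets called in tt4, 6080, fell to 3006 when only the 6 tt4 arrays were fitted, of which 2868 were also called in the same direction with all arrays. Under the other settings tried it stayed within 1.5 times: 4790 to 5756 when 1 tt4 array was left out, the lowest without tt4_CO replicate 2, and 5336 to 6268 otherwise, including 5538 with a floor of 64, 6095 with values as deposited and 5336 with array weights. The number of called differences from WT was 3 with a floor of 4 and 1 to 6 with 1 array left out. For differences from sng1 it was 2 with arrays centred on their medians, 2 with a floor of 64 and 1 to 6 with 1 array left out. The probe set 250207_at was called in each of these fits. With the replicate number as a block, 5952 probe sets were called in tt4, 1 difference from WT and 2 from sng1. The samples share only a number: deviations of same-numbered tt4_UV and tt4_CO arrays correlated at -0.0756, 0.197 and 0.146. Of the 166 called genes taken by the naming rule, 117 were called with the same sign under all 15 alternatives, and none of the 166 reversed its direction. The planned comparison of promoter motifs was not run, because no promoter sequences were at hand.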

Other observations

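There were 4 probe sets called in opposite directions in tt4 and another genotype, looked up after their values were seen. AT5G01800 rose by 0.17 in tt4 (limma adjusted p 0.0424) and fell by 0.17 in WT (0.0444), and AT2G29170 moved oppositely in tt4 and sng1 as described above. The other 2, 252716_at (-0.53 in tt4 and 0.59 in WT) and 256803_at (0.70 in tt4 and -0.74 in sng1), have no single listed gene. The difference between genotypes did not pass the test at any of these 4 probe sets.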
